A study of Mus musculus with 2 samples.

Results

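The genes described here are the replication-dependent histone genes and the linker histone genes of the mouse, in 2 CT26 tumour libraries. They were chosen by symbol from the deposited expression table: every gene whose name carried the root of the histone H1, H2A, H2B, H3 or H4 gene families followed by a number. Of 26601 named genes, 58 fitted this rule, and of a repeated symbol the highest row was kept. They were 10 H1, 14 H2A, 12 H2B, 12 H3 and 10 H4 genes. CT26 is a colon carcinoma line from BALB/c mice, grown here under the skin of BALB/c animals to about 200 mm3. FuOXP is a conjugate of 5-fluorouracil and oxaliplatin. Mice of the FuOXP NP group received nanoparticles (NP) with 10 mg/kg of FuOXP, and mice of the Empty NP group received the same kind of particle without the drug. Both groups carried the genotype label WT, were injected into a vein 3 times at intervals of 5 days, and had their tumours removed 24 h later. Each group had 3 mice by the labels and 1 library in the data, and whether tumours were pooled is not stated. The differences therefore carry no p-value and no check by replicates.

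Nucleosomes are built from the core histones H2A, H2B, H3 and H4, and linker histone H1 binds the DNA where it enters and leaves the particle. The genes of the replication-dependent kind sit in clusters and are transcribed mainly in S phase, when new DNA has to be packed, at nuclear bodies that hold the activator NPAT. Their messenger RNA usually ends not in a poly(A) tail but in a short stem-loop that is bound by SLBP, and it is degraded quickly when DNA synthesis stops. Both drugs joined in FuOXP are known to disturb DNA synthesis, one by blocking the supply of thymidylate and the other by binding DNA.

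The values are TPM, a level per transcript length relative to the whole library, and 1 column was deposited for each library. The 2 columns summed to 1001107 and 1000649. The labels give 73000000 to 77000000 reads per library. The TPM values nevertheless moved in steps of whole reads: 1 read on 1000 exon bases was worth 3.56 TPM in the control library and 1.91 TPM in the drug library, and over the 9764 named genes whose exon length gave whole numbers, which leaves out some of the most abundant, they summed to 237126 and 151682 reads. That sum is no depth: the smaller unit of the drug library means that it held more reads per length in all. Such a unit may be a single read or a pair, and the sources used here give no reason for the gap to the labelled numbers. Most histone values below rested on few reads, and each interval given is an exact 95% Clopper-Pearson interval of the reads' split between the libraries, turned into a TPM fold, which covers counting error only. For 15 members no exon length gave a whole number, and the smallest pair of whole reads with the deposited ratio is given, as "at least": the true numbers may be larger and the interval narrower. Pooled reads below take these smallest pairs, so such members can weigh too little in a pooled fold. They also leave out H2ac6 and H2ac8, for which no reads were recovered. A gene counts as measured below when its mean over both libraries reached 1 TPM, which 9488 named genes did. Log2 differences are those of TPM + 1, with Empty NP subtracted from FuOXP NP, and their median over these genes was -1.44. The median gene was thus 2.71-fold lower in FuOXP NP on TPM + 1, a scale where changes of low genes come out too small. Over the 1247 genes with at least 50 reads, where low counts weigh less, the median of plain TPM ratios was 3.17-fold lower. This value, called the typical gene below, is on the scale of the intervals and is the one that they are set against. In bulk tumour RNA, fewer cells in S phase and less histone RNA per cell cannot be told apart. The molecule is labelled total RNA, and the sources used here do not say whether poly(A) RNA was selected.

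The 3′ stem-loop is the feature that sets these messengers apart, so its variants are shown with the levels of the genes that carry them. A run of 16 bases, with a stem of 6 bases on each side and a loop of 4 bases, was searched in the GENCODE vM21 transcripts of all members, and 34 of 58 held one (58.6%). Among the 21843 protein-coding genes that are no member, 14 held one, or 0.0641%. The capitals mark the paired stem and the lower case letters the loop.
Stem-loop with TTTC loop, H1, H2A, H2B and H3 genes: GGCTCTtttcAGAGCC
Stem-loop with TTTA loop, H1, H2B and H3 genes: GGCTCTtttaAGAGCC
Stem-loop with TTTC loop, H4 genes: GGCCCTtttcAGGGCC
Stem-loop with TTTT loop, H4 genes: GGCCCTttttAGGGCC
Stem-loop with a changed stem, H4 genes: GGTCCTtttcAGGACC
Stem-loop with TTTT loop, H2ac20: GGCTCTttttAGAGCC
The first form was in 19 genes, which summed to 1405 and 667.0 TPM in Empty NP and FuOXP NP, 2.11-fold lower. H1f2, H1f3 and H1f4 held 1212 and 612.2 TPM of it, and the other 16 genes summed to 193.0 and 54.8 TPM, 3.52-fold lower. That fold leans on H2ac6 and H2ac8, at 22.4 and 23.2 TPM in Empty NP and both listed at 0 in FuOXP NP. No reads were recovered for these 2 genes, so the 3.52-fold has no counting interval. The second form was in 6 genes, at 222.0 and 109.4 TPM, 2.03-fold lower. The main H4 form was in 4 genes, H4c3, H4c4, H4c6 and H4c8, at 433.3 and 224.2 TPM, 1.93-fold lower. H4c9 and H4c14 shared the H4 form with the T-rich loop and together stood at 26.7 and 34.2 TPM, where only H4c9 was listed higher in FuOXP NP, on 1 and 5 reads. H4c2 and H4c11, with the changed stem, stood at 40.7 and 14.5 TPM together, on 3 and 2 reads each, and the interval of either, from 0.321-fold to 33.5-fold lower, held equal levels. H1f0 and H1f10, replacement linker histones whose messengers are polyadenylated, held no such run. Nor did many other members, among them H1f1, H1f5, H3c13 and H2bc18, so its absence does not mark the replacement genes. The search covers only what the gene models include, and some models hold little beyond the coding part. Other models run on past the stem-loop, which was searched anywhere in the transcript. In H1f2, H1f3 and H1f4, 840, 4884 and 1153 annotated bases follow it, so there it is not at the annotated 3′ end. Whether the reads of these genes come from forms that end at the stem-loop was not tested.

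Histone transcripts were lower in FuOXP NP, by less than the typical gene but, as a sum, by more than all measured genes together. The 58 genes summed to 2933 TPM with empty particles and 1550 TPM with FuOXP, 1.89-fold lower, or 0.293% and 0.155% of each column. On the recovered reads, 584 and 593, the fold was 1.84 (1.64 to 2.06). That interval lies below the 3.17-fold of the typical gene and the 2.71-fold of the median gene on TPM + 1. Those reads hold smallest pairs for 15 members and nothing for H2ac6 and H2ac8, so their weights differ from those of the TPM sum. A few genes carry much of that sum: without H1f2, H1f3 and H1f4 the pooled reads were 1.81-fold lower (1.53 to 2.14). Of the members, 46 were measured, and the other 12 were listed at 0 in both libraries. Of the 46, 38 were listed lower in FuOXP NP, beside 92.6% of all measured genes, and 23 were at least 2-fold lower in FuOXP NP, beside 69.8% of all 9488 genes. That order depends on the pseudocount: with 5 TPM in place of 1 TPM, 22 members were, beside 33.4% of all genes. At least 2-fold higher were 5, beside 2.34% of all genes. These 5 were H2ac10, H2bc12, H3c1, H4c9 and H2ac21, and each rested on at most 5 reads in FuOXP NP. Set against the median gene, 9 members were at least 2-fold lower, where 12.2% of all genes were, and 12 were at least 2-fold higher, where 12.6% were. The median member lay at -1.02 as deposited, 0.42 above the median gene, and 33 of the 46 lay above it and 13 below. Over the 36 members above 0 in both libraries the median was -0.79, where that of all genes so restricted was -1.32. These medians set genes beside genes, while the 1.89-fold and 1.84-fold are sums set beside a median of single genes. As a sum, all 9488 measured genes stood at 368171 and 285162 TPM, 1.29-fold lower, so the histone sum fell by more than theirs.

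**Figure D1:**
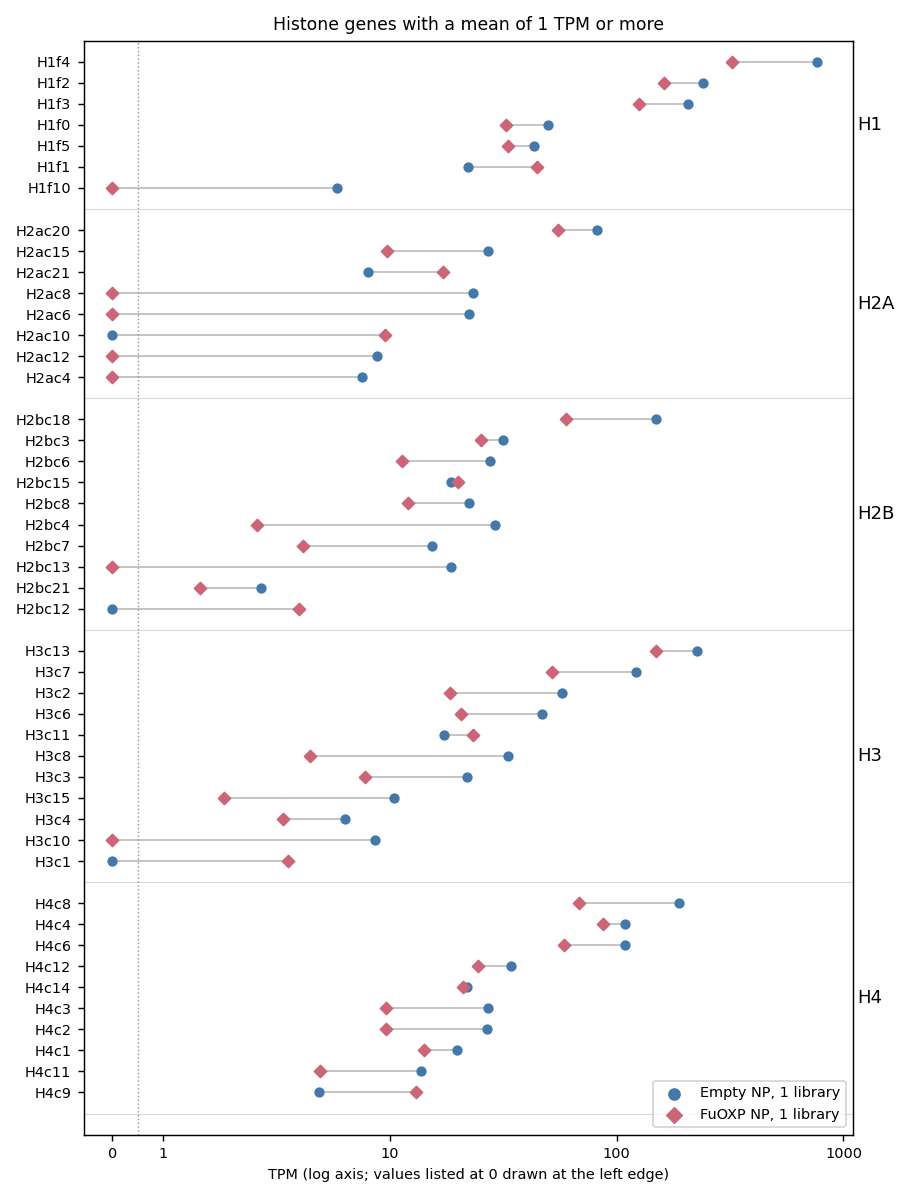
TPM (log axis, with 0 at the left edge) of the 46 measured histone genes, by class, in Empty NP (circles) and FuOXP NP (diamonds), 1 library each. The diamond lies to the left in 38 genes and to the right in 8, and H1f4 is the most abundant in both libraries.

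By class, the direction was the same for all 5 and the sizes lay close together. H1 summed to 1333 and 722.7 TPM, 1.84-fold lower. H2A summed to 179.4 and 91.5 TPM, 1.96-fold lower. H2B summed to 315.8 and 141.0 TPM, 2.24-fold lower. On recovered reads the folds were 1.77 for H1 (1.53 to 2.05), 1.46 for H2A (0.743 to 2.83) and 2.46 for H2B (1.58 to 3.85), so the intervals overlap. H3 summed to 550.4 and 283.6 TPM, 1.94-fold lower as listed and 2.04-fold on reads (1.51 to 2.76). H4 summed to 554.9 and 311.5 TPM, 1.78-fold lower as listed and 1.76-fold on reads (1.23 to 2.50). On the reads that could be recovered, the classes could therefore not be told from each other. Of the classes, H2B alone passed 2-fold in its sum as listed; relative to the median gene each class sum was higher, by 0.28 for H2B and by 0.48 to 0.61 for the others on the log2 scale. The split of the histone total hardly differed, with H1 at 45.4% and 46.6% of it.

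**Figure D2:**
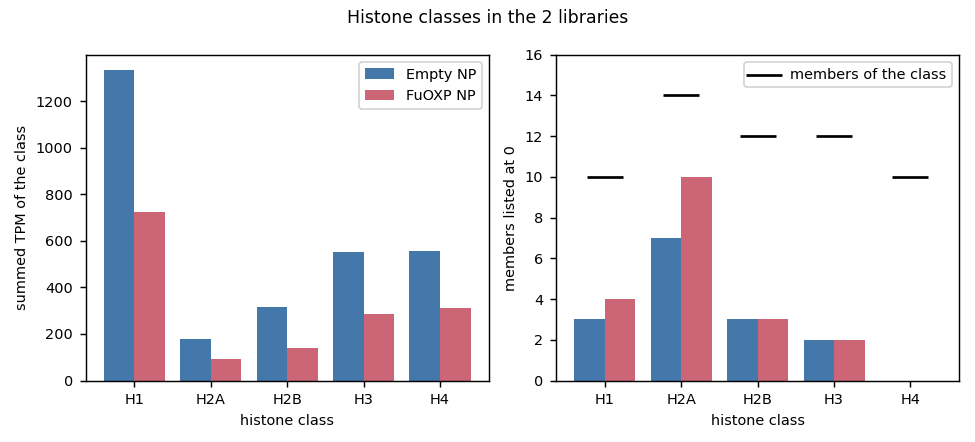
Left, summed TPM of each histone class in the 2 libraries, on an axis from 0. Right, the number of members listed at 0, with a bar at the size of the class: H2A has 7 and 10 of 14 at 0 in Empty NP and FuOXP NP, and H4 has none.

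Linker histones were the most abundant class, and their somatic genes are H1f1 to H1f5. H1f4, on the minus strand at chr13:23620629-23622558 (GRCm38, GENCODE vM21), was listed at 766.6 and 323.9 TPM, with the Empty NP value first here and in what follows. It rested on at least 161 and 127 reads and was 2.37-fold lower (1.86 to 3.01), with its exons overlapping those of H2bc6 and of the predicted gene Gm11398. Alone it held 57.5% and 44.8% of the H1 sum. The 150 bases before its annotated start are shown because they hold the elements that H1 and core histone promoters are known for.
H1f4 promoter: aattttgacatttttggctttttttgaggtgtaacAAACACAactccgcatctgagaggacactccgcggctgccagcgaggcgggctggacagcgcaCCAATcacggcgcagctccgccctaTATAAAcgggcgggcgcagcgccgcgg
The sequence is from RefSeq (GRCm38.p6), chr13:23622559-23622708 on the minus strand, 5′ to 3′. The capitals mark, in order, AAACACA, which is the H1 box, CCAAT and TATAAA, which begin 115, 52 and 27 bases before the start. The H1 box was found on either strand within 250 bases before the start in 5 of the 10 H1 promoters (H1f2, H1f3, H1f4, H1f5 and the testis gene H1f6), and in 6.23% of all 27025 promoters in the table. A match is a description of letters, not a mapped binding site.

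H1f2 was at 239.7 and 162.6 TPM on 105 and 133 reads, 1.47-fold lower (1.13 to 1.92). H1f3 was at 205.8 and 125.6 TPM on at least 43 and 49 reads, 1.64-fold lower (1.06 to 2.52). Both somatic H1 genes were lower in FuOXP NP by less than the typical gene. The interval of H1f4 ended short of that 3.17-fold but held the 2.71-fold of the median gene, a value on TPM + 1. H1f5 was at 43.1 and 33.4 TPM on 9 and 13 reads. H1f1 went the other way, at 22.2 and 44.6 TPM on at least 4 and 15 reads. Its log2 difference of 0.97 fell just short of the 2-fold rule, and the interval of its ratio, Empty NP over FuOXP NP, ran from 0.120 to 1.56 and so held equal levels. The replacement linker histone H1f0, which accumulates in cells that stop dividing, was at 49.8 and 32.5 TPM on at least 32 and 39 reads, 1.53-fold lower (0.929 to 2.51). H1f10, the other replacement gene, was at 5.85 TPM in Empty NP on 2 reads and listed at 0 in FuOXP NP. The germ cell genes H1f6, H1f7 and H1f8 were listed at 0 in both libraries, as were the testis core histone genes H2ac1 and H2bc1.

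**Figure D3:**
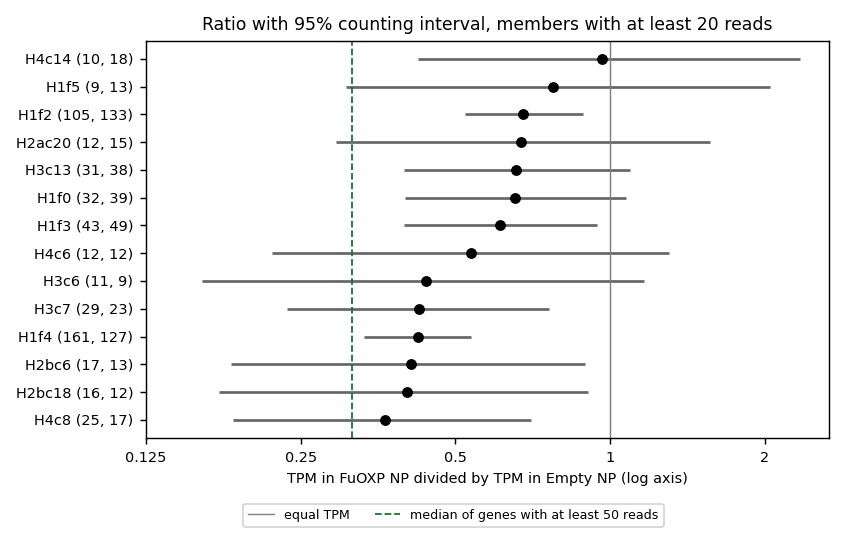
Ratio of TPM, FuOXP NP over Empty NP (log axis), with its exact 95% counting interval for the 14 members with at least 20 reads in both libraries together, reads in Empty NP and FuOXP NP in brackets. All 14 points lie to the right of the dashed line at the median of genes with at least 50 reads (3.17-fold lower), 6 intervals lie wholly to its right, and 7 lie wholly to the left of equal TPM.

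Across classes, 44 members had a read number. Of these, 7 had an interval wholly above the typical gene (3.17-fold lower), beside 5.49% of 9094 genes: H1f0, H1f1, H1f2, H1f3, H1f4, H3c13 and H4c14. Set against the 2.71-fold of the median gene, H1f4 drops out of them. No member had an interval wholly below it, where 6.91% of genes did. Among the 14 members with at least 20 reads the count was 6, beside 13.4% of the 2895 genes with that many, and 0 lay wholly below, beside 17.1%. Of the 7, 5 were H1 genes, the class with the most reads. Against equal TPM, the intervals of 9 members lay wholly on the lower side, beside 47.2% of genes, and of 0 on the higher side, beside 0.0990%. The 9 were H1f2, H1f3, H1f4, H2bc4, H2bc6, H2bc18, H3c2, H3c7 and H4c8.

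Histone H3, which carries many of the known regulatory marks of chromatin, is encoded here by genes for 2 proteins, H3.1 and H3.2. H3c13, an H3.2 gene at chr3:96268654-96269141, was the most abundant at 226.2 and 148.6 TPM on 31 and 38 reads, 1.52-fold lower (0.916 to 2.51). Its exons overlap those of the predicted gene Gm20628. H3c7 was at 121.8 and 51.7 TPM on at least 29 and 23 reads, 2.35-fold lower (1.31 to 4.26). H3c13 held 41.1% of the H3 sum in Empty NP and 52.4% in FuOXP NP. H3c2 was at 57.4 and 18.5 TPM on 10 and 6 reads, and H3c6 at 46.9 and 20.5 TPM on 11 and 9 reads. H3c3 was at 21.8 and 7.80 TPM, H3c15 at 10.5 and 1.87 TPM, and H3c4 at 6.36 and 3.41 TPM, on few reads. All 7 measured H3.2 genes were listed lower in FuOXP NP, as 92.6% of all measured genes were. The H3.1 genes were mixed: H3c8 was at 33.4 and 4.47 TPM, H3c10 at 8.67 TPM and listed at 0, H3c11 at 17.3 and 23.2 TPM, and H3c1 listed at 0 and at 3.57 TPM. H3c1, H3c10 and H3c11 rested on at most 5 reads in a library. The H3.1 genes summed to 59.4 and 31.2 TPM and the H3.2 genes to 491.0 and 252.4 TPM, both lower in FuOXP NP by near the same fold, 1.90 and 1.95. H3c14 was listed at 0 in both libraries.

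The promoter of H3c13 and that of its neighbour H2bc18, the most abundant H2B gene, are shown because both genes lead their class and start within a short stretch of chromosome 3. The capitals mark CCAAT in both and the octamer ATTTGCAT in H2bc18.
H3c13 promoter: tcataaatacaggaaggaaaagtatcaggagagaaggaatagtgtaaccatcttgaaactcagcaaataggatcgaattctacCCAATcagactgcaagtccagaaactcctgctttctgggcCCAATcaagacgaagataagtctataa
H2bc18 promoter: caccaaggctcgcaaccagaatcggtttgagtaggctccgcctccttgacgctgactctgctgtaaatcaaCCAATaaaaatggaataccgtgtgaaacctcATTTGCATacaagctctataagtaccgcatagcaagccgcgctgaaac
They are RefSeq sequences (GRCm38.p6), chr3:96268504-96268653 and chr3:96269550-96269699, both on the plus strand. CCAAT begins 67 and 27 bases before the start of H3c13 and 79 bases before that of H2bc18, where the octamer, the binding site of POU2F1 (OCT1), begins at 48 bases. Of the 53 members with a promoter in the table, 79.2% held CCAAT on either strand within 250 bases, beside 34.5% of all promoters, and 45.3% held TATAAA, beside 13% of all. The octamer was in 5 of 10 H2B and 6 of 14 H2A promoters and in no H1, H3 or H4 promoter, and in 1.62% of all promoters. CCAAT was in all 10 H2B and all 14 H2A promoters but in 3 of 9 H4 promoters. Where an H2A and an H2B gene lie head to head, as described below, their searched stretches overlap. The same site can then count for both genes, so the H2A and H2B counts are not independent.

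Histone H4 was the single class with no member listed at 0. H4c8, at chr13:23531050-23531519, was the most abundant at 188.2 and 68.6 TPM on at least 25 and 17 reads, 2.75-fold lower (1.42 to 5.42). H4c6 was at 109.3 and 58.5 TPM on 12 reads in each, and H4c4 at 108.7 and 87.4 TPM. H4c8 led in Empty NP and H4c4 in FuOXP NP, with 28.1% of the H4 sum. The middle group held H4c12 at 34.2 and 24.5 TPM, H4c3 at 27.0 and 9.66 TPM, H4c2 at 26.9 and 9.61 TPM and H4c1 at 19.8 and 14.2 TPM. H4c11, the lowest of those that were lower in FuOXP NP, was at 13.8 and 4.93 TPM. H4c14, on chromosome 3, was almost equal at 21.8 and 21.1 TPM on 10 and 18 reads, a fold of 1.04 (0.428 to 2.37). H4c9 was the one H4 gene listed higher in FuOXP NP, at 4.90 and 13.1 TPM on 1 read and 5 reads.

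Among H2B genes, which encode the partner of H2A in the nucleosome, H2bc18 at chr3:96269752-96270132 was listed at 149.6 and 60.1 TPM on 16 and 12 reads, 2.49-fold lower (1.105 to 5.76). Its exons overlap those of the predicted genes Gm20628 and Gm42743. It held 47.4% and 42.6% of the H2B sum. H2bc4 showed the widest gap among H2B genes above 0 in both libraries, at 29.0 and 2.59 TPM, but on at least 6 reads and 1 read, with an interval from 1.36-fold to 515-fold lower. H2bc6 was at 27.7 and 11.3 TPM on at least 17 and 13 reads, 2.44-fold lower (1.12 to 5.47), and shares exon bases with H1f4. H2bc3 was at 31.5 and 25.3 TPM, H2bc8 at 22.4 and 12.0 TPM and H2bc7 at 15.5 and 4.14 TPM. These H2B genes were all listed lower in FuOXP NP. H2bc15 was at 18.7 and 20.03 TPM on 2 and 4 reads, near equal. H2bc21, which in mouse encodes a variant studied in olfactory neurons, was at 2.72 and 1.46 TPM on 2 reads in each. H2bc13 was at 18.7 TPM and listed at 0, and H2bc12 was listed at 0 and at 4.01 TPM, on 1 read.

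H2A was the least abundant class and the one with the most members at 0. H2ac20, at chr3:96220361-96220880, led it at 82.2 and 55.0 TPM on 12 and 15 reads, 1.49-fold lower (0.638 to 3.42). It held 45.8% of the H2A sum in Empty NP and 60.2% in FuOXP NP. Its promoter is shown because this gene carries both CCAAT on each strand and TATAAA, marked by the capitals, with ATTGG the reverse complement of CCAAT.
H2ac20 promoter: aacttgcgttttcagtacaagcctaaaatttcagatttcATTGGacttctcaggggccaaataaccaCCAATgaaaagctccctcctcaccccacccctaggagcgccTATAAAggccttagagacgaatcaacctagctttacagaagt
It is the RefSeq sequence (GRCm38.p6) at chr3:96220881-96221030 on the minus strand, and the marked runs begin 111, 83 and 42 bases before the start. H2ac15 was at 27.2 and 9.71 TPM on 3 and 2 reads. The genes H2ac8, H2ac6, H2ac12 and H2ac4 had Empty NP levels of 23.2, 22.4, 8.79 and 7.53 TPM, and all 4 were listed at 0 in FuOXP NP. The read numbers of H2ac6 and H2ac8 could not be recovered, and H2ac12 and H2ac4 rested on 1 read each. In the other direction, H2ac10 was listed at 0 and at 9.56 TPM on 2 reads, and H2ac21 was at 8.02 and 17.2 TPM on 1 and 4 reads. The class median of -2.24 lies below that of all genes because of the members listed at 0, which take a value set by the pseudocount: over the 3 H2A genes above 0 in both libraries it was -0.57. Exons of all 14 H2A genes overlap another annotated gene, so reads may be split with it.

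Many H2A and H2B genes are arranged head to head and share the stretch between their starts. Of 9 such pairs, with 175 to 305 bases between the genes, Empty NP had 4 with both partners above 0 and FuOXP NP had 2. The 4 were H2ac6 with H2bc4, H2ac8 with H2bc8, H2ac15 with H2bc15 and H2ac20 with H2bc21. In the first 2 of them the H2A partner was listed at 0 in FuOXP NP while H2bc4 and H2bc8 stayed above 0. The partners' levels were unequal even where both were read: H2ac20 stood at 82.2 and 55.0 TPM, and H2bc21, 238 bases away, at 2.72 and 1.46 TPM. The pairs H2ac1 with H2bc1 and H2ac11 with H2bc11 were at 0 on both sides in both libraries.

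Across all classes, 15 members were listed at 0 in Empty NP and 19 in FuOXP NP. Listed at 0 in FuOXP NP alone were 7: H1f10, H2ac4, H2ac6, H2ac8, H2ac12, H2bc13 and H3c10. Listed at 0 in Empty NP alone were 3, H2ac10, H2bc12 and H3c1. Among the 46 measured members the 7 compare with 13.0% of all measured genes at 0 in FuOXP NP, and the 3 with 1.92% at 0 in Empty NP. Apart from H2ac6 and H2ac8, whose reads are unknown, the level that stood against the 0 rested on 1 or 2 reads.

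Histone genes of 1 class are near copies of each other, so reads of 75 bases cannot always be placed. The share of 75-base windows of a member's GENCODE transcript that occurred in no other member had a median of 65.0% over the 58 genes. It was 100% for H1, 40.4% for H2A, 58.0% for H2B, 47.7% for H3 and 76.8% for H4. The class with the most zeros thus had the lowest share of its own windows. By listing, the median was 74.0% for the 36 members above 0 in both libraries, 37.1% for the 10 above 0 in one and 57.9% for the 12 at 0 in both. In H2ac19, listed at 0, none of the windows was its own, and H2ac18, also at 0, had 11.3%. H3c10 had 6.53%, and the abundant H3c13 had 21.5%. H4c14 and H1f5 had 100%, and H1f2 and H1f3 had 93.3% and 98.5%. Counted against the transcripts of all annotated genes, H2bc18 went from 100% to 0% and H3c13 to 0%, H2ac21 from 91.1% to 37.6%, and H1f0 from 100% to 95.5%. How reads that fit several genes were counted is not stated in the sources used here, and its part in these values was not tested.

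**Figure D4:**
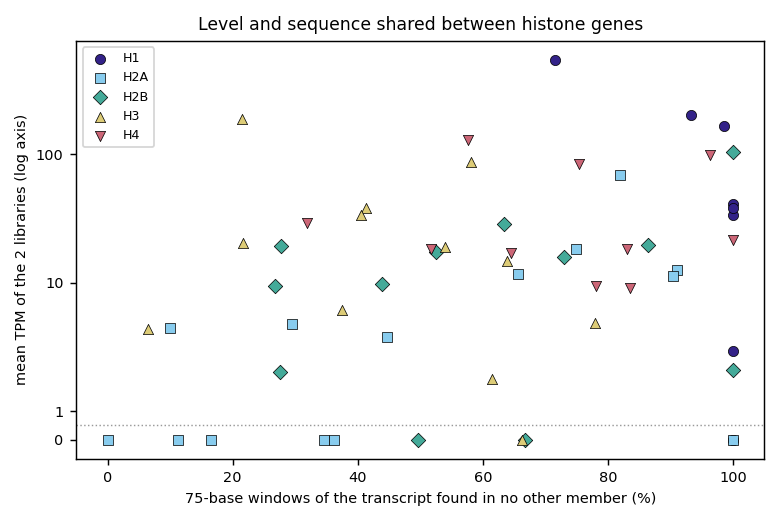
Mean TPM of the 2 libraries (log axis, 0 at the bottom) against the percent of 75-base windows found in no other member, for the 58 histone genes, by class. H1 genes lie between 71.6% and 100%, while the H2A genes at 0 are spread from 0% to 100%.

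The members lay on 4 chromosomes. The large cluster on chromosome 13 held 44 of them, at 2377 and 1212 TPM, 1.96-fold lower and 1.91-fold on reads (1.68 to 2.18). The cluster on chromosome 3 held 10, at 501.05 and 305.3 TPM, 1.64-fold lower and 1.56-fold on reads (1.13 to 2.14). These intervals overlap. The remaining genes were H1f0 and H1f7 on chromosome 15 and H1f8 and H1f10 on chromosome 6, far apart on each.

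Genes that act on histone messengers were set beside the histones, from lists chosen with earlier results known. Of 7 measured genes of histone gene transcription, 4 were at least 2-fold lower and 0 higher, with a median of -1.17, beside 69.8%, 2.34% and -1.44 over all measured genes. Npat, the activator of the histone clusters, was at 6.27 and 0.916 TPM, and Casp8ap2, its partner in the histone locus body, at 6.26 and 2.24 TPM. Ccne1, a cyclin that activates NPAT, was at 2.68 TPM and listed at 0. Ccna2, the S and G2 phase cyclin, was at 200.6 and 72.9 TPM, with exons that overlap Exosc9. These are the 4 of the list with the largest differences, so their direction is no result.

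Of 13 measured genes of histone 3′ end processing, 6 were at least 2-fold lower (69.8% of all measured genes) and 1 higher (2.34% of all), with a median of -0.83. Slbp, which binds the stem-loop, was at 4.69 and 2.20 TPM on 8 and 7 reads. Among the largest differences were Srrt at 15.6 and 1.46 TPM, Snrpb at 21.6 and 2.90 TPM, Cpsf3, the cleaving nuclease, at 11.1 and 1.49 TPM, and Sympk, a scaffold of the cleavage complex, at 4.73 and 0.543 TPM. The gene at least 2-fold higher was Lsm10, a subunit of the U7 particle, listed at 0 and at 2.02 TPM on 1 read. Of 9 measured genes of histone messenger decay, 6 were at least 2-fold lower, near the 69.8% of all genes, and 0 higher, with a median of -1.16. Dcp2, the decapping enzyme, was at 6.55 and 0.219 TPM, Exosc10 of the nuclear exosome at 10.9 and 1.59 TPM, Smg1 at 4.75 and 0.795 TPM, and Upf1, which SLBP recruits for decay, at 6.94 and 2.07 TPM.

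Histone chaperones and import factors included 18 measured genes, of which 13 were at least 2-fold lower, near the 69.8% of all genes, and 0 higher, with a median of -1.44, that of all genes. Anp32e, a chaperone that removes the variant H2A.Z, was at 13.98 and 1.07 TPM. Rbbp4, a subunit of the replication chaperone CAF-1, was at 18.7 and 2.62 TPM, and its exons overlap Sync. Atrx was at 9.99 and 1.49 TPM, and Hjurp, listed under an older clone name, at 11.1 and 1.37 TPM. Of 8 measured genes for replication-independent core histones, 5 were at least 2-fold lower, near the 69.8% of all genes, and 0 higher, with a median of -1.08. H2ax, the variant marked at DNA breaks, was listed under its older symbol at 25.7 and 4.14 TPM on 10 and 3 reads, and H2az1 at 34.1 and 15.0 TPM on 17 and 14 reads. Macroh2a1 was at 6.80 and 1.96 TPM and Macroh2a2 at 13.1 and 2.63 TPM. Exons of Slbp, Cpsf3, Srrt, Upf1, H2ax, Macroh2a1 and Macroh2a2 also overlap another annotated gene.

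Genes of S phase were lower by more than the histones in their summed level. Of 22 measured genes, 17 were at least 2-fold lower, near the 69.8% of all genes, and 0 higher, with a median of -1.53. They summed to 646.6 and 136.5 TPM, 4.74-fold lower, against 1.89-fold for the histones. Gins2, a subunit of the replicative helicase whose exons overlap Gse1, held most of that sum at 425.1 and 78.2 TPM. Without Gins2 the sum was 3.80-fold lower, and 3.89-fold on 267 and 128 reads (3.14 to 4.85), an interval that does not meet the 1.64 to 2.06 of the histones. The same interval held the 3.17-fold of the typical gene, so without Gins2 the S phase genes were not set apart from it. Tk1, thymidine kinase, was at 45.2 and 4.77 TPM, Dut, which removes dUTP, at 7.39 and 0.792 TPM, and Cdc45, a helicase partner, at 7.91 TPM and listed at 0. Exons of Tk1 and Cdc45 overlap Afmid and Ufd1.

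**Figure D5:**
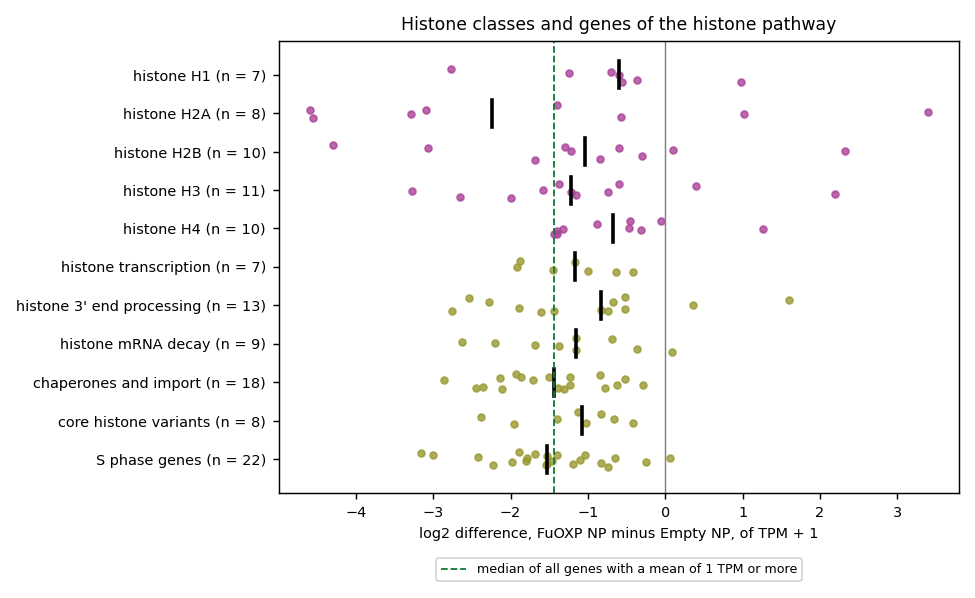
Log2 difference of TPM + 1, FuOXP NP minus Empty NP, for each histone class and 6 lists of related genes, with the list median as a black bar and the median of all measured genes as a dashed line at -1.44. Points are single measured genes: the medians of H1 (-0.60) and H4 (-0.68) lie to the right of the dashed line and that of the S phase genes (-1.53) just to its left.

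Markers of other cells were set beside the same 69.8% lower and 2.34% higher of all measured genes. Of 10 skeletal muscle markers, 9 were measured and all 9 were at least 2-fold lower, with summed levels of 109.7 and 0.317 TPM, and 9 of the 10 listed at 0 in FuOXP NP. Of 9 leukocyte markers, 3 were at least 2-fold lower and 2 higher, and they summed to 321.3 and 233.5 TPM. Among their T cell genes, Cd3e was at 0 in both libraries. Cd3g stood at 3.33 TPM with empty particles and at 0 with FuOXP, and its read number could not be recovered. Of 8 fibroblast and endothelial markers, 4 were at least 2-fold lower and 0 higher, summing to 127.0 and 61.8 TPM. Of 6 erythroid markers found, 1 was at least 2-fold lower and 2 higher, summing to 38.5 and 17.8 TPM, with Slc4a1 at 0 in both. Epithelial markers, which would mark a colon carcinoma, were mostly listed at 0: 7 of 9 were at 0 in Empty NP, among them Epcam, Cdh1 and Krt8, and all 9 were at 0 in FuOXP NP. Of 8 germ cell markers 7 were at 0 in both libraries, and Sycp3, whose exons overlap Chpt1, was at 104.3 and 34.7 TPM. The part of these other cells in the histone values was not tested.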

How the data were processed

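Total RNA of 2 tumours or tumour pools was sequenced, with paired reads of 75 bases per the labels. STAR 2.6.1a, Cufflinks 2.2.1, Cuffdiff and the build GRCm38 appear, in no stated order, per the submitters' processing notes. The authors deposited TPM values, 1 column per library, relative to the library's length-scaled total; the sources used here do not name the annotation. Of 53927 rows, 22240 had no symbol and 26 a symbol turned into a date. These rows stayed in the totals but entered no gene comparison, and 54 repeated value pairs were counted once.

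Differences were taken on log2 of TPM plus a pseudocount of 1, where changes of low genes come out too small, over genes whose mean reached 1 TPM. No test was possible with single libraries, and a 2-fold difference was used as a description. Named were all members with that mean and up to 4 genes per list with the largest differences; Slbp, Lsm10 and the markers listed at 0 were named after their values were seen. The members and lists were chosen with earlier results of these data known.

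Whole reads were recovered from GENCODE vM21 exon lengths (29 members, within 0.01 of a whole number) or as the smallest whole pair giving the deposited ratio (15 members). For 88% of the 9010 genes with no 0, the TPM ratio was equal (relative tolerance 3e-09) to a ratio of whole reads with no more than 30 for Empty NP; after multiplying the ratios by a fixed factor it was so for 0%. On simulated reads, for FuOXP NP against Empty NP over 11483 genes, 100% of 9148 pairs were recovered in their smallest whole form. Each true pair was first divided by its common factor, so this check cannot show that the read numbers themselves were recovered. Promoters came from RefSeq (GRCm38.p6) for 53 members, transcripts from GENCODE. Protein sequences, planned for the leading members, were not used here. Work was done in Python 3.11.15, numpy 2.4.6, pandas 2.3.3, scipy 1.17.1 and matplotlib 3.10.9.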

Additional observations from a re-analysis of the deposited data

How the results depend on the processing

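The number of members at least 2-fold lower, 23 of 46, stood beside 69.8% of all genes. It was 23 with a pseudocount of 0.1 TPM (76.1% of all genes), 23 with repeated rows summed and 19 of 37 at a mean of at least 5 TPM (79.7%). With a pseudocount of 5 TPM it was 22 of 46 beside 33.4%, and with no filter 23 of 58 beside 27.6%, so under these the members' share lay above that of all genes. It was 16 over the 36 members above 0 in both libraries. It was 15 over the 32 members with at least 50% of windows in no other member. The number at least 2-fold higher, 5, was 6 with a pseudocount of 0.1 TPM, 1 with 5 TPM, 2 with a mean of 5 TPM or more, 2 over members above 0 in both and 3 over those chosen by windows. These last 2 restrictions were chosen after seeing the data and leave fewer genes. Centring on the median gene and rescaling without the 20 most abundant rows each gave 9 lower and 12 higher, beside 12.2% and 12.6% of all genes with centring and 30.3% and 15.8% with rescaling. Class sums, all lower as deposited, were all higher on these scales. Centred, the log2 difference was 0.52 for all members, 0.56 for H1, 0.48 for H2A, 0.28 for H2B, 0.49 for H3 and 0.61 for H4. Rescaled, it was 0.58, 0.61, 0.52, 0.33, 0.54 and 0.66. Without its highest member the H1 sum was at -0.51, and no other class sum moved by as much as its counting interval under the other alternatives run. Of the members at least 2-fold lower as deposited, these changed sign when centred: H1f4 0.20, H2ac15 0.044, H2bc6 0.22, H2bc18 0.14, H3c3 0.064, H3c6 0.29, H3c7 0.22, H4c2 0.045, H4c3 0.044 and H4c11 0.12. Rescaled, they were H1f4 0.25, H2ac15 0.01, H2bc6 0.20, H2bc18 0.18, H3c3 0.0099, H3c6 0.30, H3c7 0.26, H4c2 0.01, H4c3 0.01, H4c8 0.039 and H4c11 0.0098. Centring adds the same amount to every log2 difference. Rescaling does not: it took members listed at 0 in FuOXP NP further down, among them H2ac6 to -5.44 and H2ac8 to -5.49. No paired analysis was possible because each group had 1 library, and for the same reason no replicate could be left out. Depth limits most single genes: the median measured member rested on 5.5 reads in both libraries together.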
